A study of Homo sapiens with 20 samples.

Results

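The CYP4F cluster on chromosome 19 was described in the NGP nutlin dataset through 6 genes, CYP4F2, CYP4F3, CYP4F8, CYP4F11, CYP4F12 and CYP4F22, out of 57536 genes with a matched transcript. They were taken by gene name, and the family was selected on its response to nutlin in these same samples, so that the nutlin values of the 6 genes are given as a description with no test. NGP is a human neuroblastoma cell line. A group of 10 samples received nutlin-3, a small compound that blocks MDM2, at 8 µM as a racemic mixture, and a group of 10 received ethanol as vehicle. All cells grew in 6-well culture flasks. The treatment time is not given in the sources used here, and both groups are of a single cell line, so that the values hold for this line only. Poly(A) RNA was sequenced as stranded paired-end reads of 75 bases, and between 14455477 and 19532971 read pairs were counted per sample.

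CYP4F enzymes are cytochrome P450 monooxygenases of the endoplasmic reticulum that add a hydroxyl group at or near the methyl (omega) end of fatty acids and of related lipids. They take electrons from the reductase POR. CYP4F2 forms 20-HETE from arachidonic acid and shortens the side chains of vitamins E and K, mainly in liver and kidney. CYP4F3 inactivates the neutrophil attractant leukotriene B4. CYP4F8 acts on prostaglandin endoperoxides and is known from seminal vesicles. CYP4F11 hydroxylates long-chain and 3-hydroxy fatty acids, vitamin K and several drugs. CYP4F12 is known from liver and intestine, and CYP4F22 from skin, where it makes the omega-hydroxy ultra-long-chain fatty acids of acylceramides.

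In GRCh38 the 6 genes span 426 kb, from 15508525 to 15934867 of chromosome 19. CYP4F22, CYP4F8, CYP4F3 and CYP4F12 are on the plus strand and CYP4F2 and CYP4F11 on the minus strand. CYP4F2 (ENSG00000186115) lies at chr19:15878023-15898077 and CYP4F3 (ENSG00000186529) at chr19:15640897-15662825. Both genes hold a pair of alternative exons of 145 bases within the coding region, and no annotated transcript in the files carries both. The form of the enzyme usually called CYP4F3A, of neutrophils, comes from the downstream exon, and CYP4F3B, of liver, from the upstream exon. The exons are shown because the transcripts of nutlin samples differed in them. They are written 5′ to 3′ on the coding strand, and capitals mark the positions at which the corresponding exons of CYP4F2 and CYP4F3 differ.
CYP4F2 upstream exon, chr19:15895506-15895650, minus strand: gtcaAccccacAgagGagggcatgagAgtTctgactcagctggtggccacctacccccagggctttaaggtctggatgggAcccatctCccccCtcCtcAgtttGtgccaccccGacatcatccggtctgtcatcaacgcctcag
CYP4F3 upstream exon, chr19:15643907-15644051, plus strand: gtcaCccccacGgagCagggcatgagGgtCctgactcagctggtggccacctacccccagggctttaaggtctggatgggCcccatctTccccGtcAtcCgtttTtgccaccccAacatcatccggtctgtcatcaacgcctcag
CYP4F2 downstream exon, chr19:15893737-15893881, minus strand: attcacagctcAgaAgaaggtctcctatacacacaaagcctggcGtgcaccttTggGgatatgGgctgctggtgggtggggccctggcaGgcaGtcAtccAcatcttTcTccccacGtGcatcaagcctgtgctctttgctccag
CYP4F3 downstream exon, chr19:15645719-15645863, plus strand: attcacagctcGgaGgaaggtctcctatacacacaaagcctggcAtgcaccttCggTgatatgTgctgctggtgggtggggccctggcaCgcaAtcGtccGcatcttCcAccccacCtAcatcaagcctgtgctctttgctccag

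The upstream exons of the 2 genes differed at 12 of 145 positions (91.7% identity) and the downstream exons at 14 (90.3%). Within a gene the upstream and downstream exons were much less alike, with 43.4% identity in CYP4F2 and 48.3% in CYP4F3. Likeness between the genes bears on their counts. Of the distinct 31-base words of CYP4F2 transcripts, the unit by which kallisto assigns reads, 25.9% were also found in transcripts of another gene, and for CYP4F3 this was 20.8%. For words of 75 bases, the length of a read, it was 6.09% and 3.64%. The shares of 31-base words were 6.81% for CYP4F8, 5.86% for CYP4F11, 6.14% for CYP4F12 and 0 for CYP4F22. The split of reads between CYP4F2 and CYP4F3 is therefore less certain than their sum.

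Levels are given as CPM, counts scaled to a common library size with TMM, wherever one gene is compared across samples. In vehicle samples the whole family was scarce. The summed CPM of the 6 genes was 0.773 in the lowest vehicle sample, 1.27 in the median and 1.75 in the highest. In nutlin samples the lowest sum was 508, the median 566 and the highest 612. The log2 fold change (LFC) of the summed counts was 8.79 ± 0.10 (SE, n = 10 per group).

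CYP4F2 had between 0 and 4.44 estimated counts in vehicle samples, with 4 of 10 samples at 0 after rounding. In CPM the lowest vehicle sample was at 0, the median at 0.060 and the highest at 0.254. In nutlin samples the lowest value was 198.5 CPM, the median 233 and the highest 257. Every nutlin sample was far above every vehicle sample. The LFC was 11.44 ± 0.44 (SE). It rests on 12 counts over all vehicle samples against 38086 in nutlin samples, and its size depends on the prior count that edgeR adds. The ratio of the 2 totals was 3536 with an exact 95% interval of 2024 to 6843, which covers counting error only. It is corrected for total counts without TMM, and is thus on another scale than CPM and LFC.

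CYP4F3, the leukotriene B4 hydroxylase, was at 0.110 CPM in the lowest vehicle sample, 0.410 in the median and 0.844 in the highest. In nutlin samples it was at 304 in the lowest, 330 in the median and 349.7 in the highest. The groups did not overlap, and no vehicle sample was at 0. The LFC was 9.47 ± 0.19 (SE). CYP4F2 and CYP4F3 had the highest LFC among the 15813 genes with a count in each condition and a mean of 1 CPM or more. Genes with counts in 1 condition only have no LFC and were not ranked. The nutlin contrast is how the family was chosen.

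CYP4F12 was at 0 in the lowest vehicle sample, 0.133 CPM in the median and 0.351 in the highest. Its nutlin samples were at 3.69 in the lowest, 4.53 in the median and 5.45 in the highest. The groups were apart. The LFC was 4.93 ± 0.32 (SE), the rank of which was 78 among the same 15813 genes.

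CYP4F11 had 8 counts over all vehicle samples and 62 over all nutlin samples. It was at 0 in the lowest vehicle sample, 0.032 CPM in the median and 0.137 in the highest. Nutlin samples were at 0.122, 0.360 and 0.748. The ranges overlapped, with 9 of 10 nutlin samples above the highest vehicle sample. The LFC was 2.73 ± 0.58 (SE).

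CYP4F8, the prostaglandin enzyme, held 45.4% ± 17.0 (SD, n = 10) of the family's counts in vehicle samples and 0.195% ± 0.072 in nutlin samples, without correction for length. It was at 0.225 CPM in the lowest vehicle sample, 0.523 in the median and 0.842 in the highest. Nutlin samples were at 0.476, 1.03 and 1.70. The groups overlapped, and 7 of 10 nutlin samples lay above the highest vehicle sample. The LFC was 0.99 ± 0.25 (SE).

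CYP4F22, the acylceramide enzyme, had no count in any of the 20 samples. A total of 3 counts, the upper 95% limit for a count of 0 by counting error alone, would be 0.0176 CPM over the vehicle samples and 0.0196 CPM over the nutlin samples. No fold can be given.

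Of the 6 genes, 5 had a count in each condition, and in 3 of these every nutlin sample was above every vehicle sample. The background was 10.1% of the 36016 genes counted at least once in both conditions, and nothing is read from it since the same contrast chose the genes. Among the members CYP4F8, with overlapping groups, lies next to CYP4F3 on the same strand, and CYP4F11 next to CYP4F2.

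**Figure D1:**
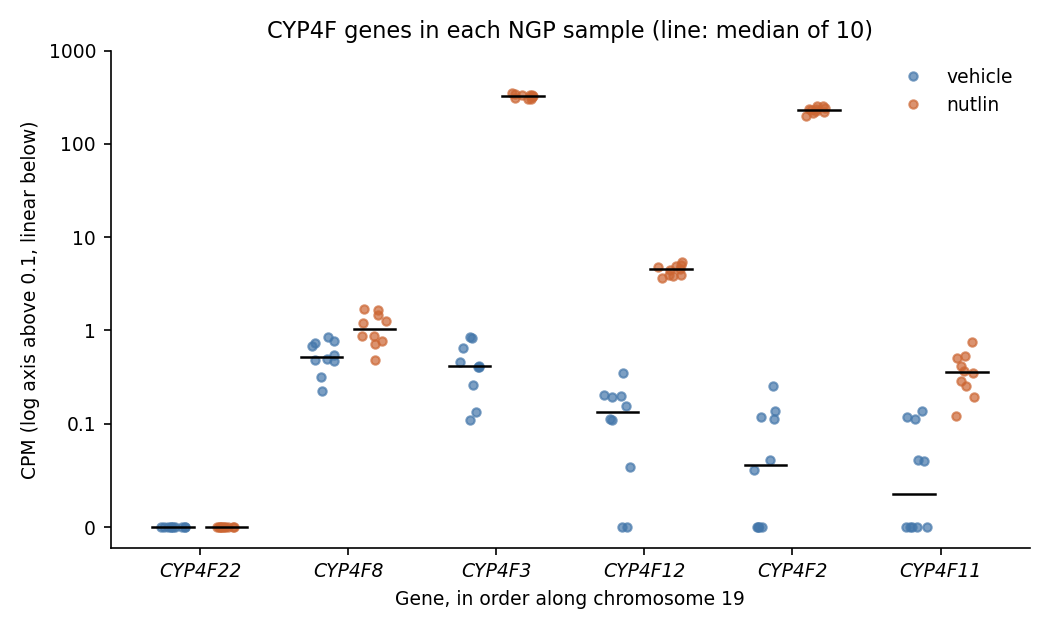
CPM of each CYP4F gene (vertical axis, log scale above 0.1 and linear below) in the 10 vehicle samples (blue points) and the 10 nutlin samples (orange points), with black lines at the medians. CYP4F3, CYP4F12 and CYP4F2 have groups that do not overlap, CYP4F8 and CYP4F11 overlap, and CYP4F22 is at 0 in all samples.

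The spread among nutlin samples differed between members along with their counts. The coefficient of variation of CPM was 4.83% for CYP4F3, 7.95% for CYP4F2 and 13.4% for CYP4F12, against 1.36%, 1.62% and 11.7% from counting error alone. CYP4F8 varied by 38.2% and CYP4F11 by 48.7%, with 23.5% and 39.9% from counting error.

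Levels of different genes were compared as TPM, which divides by transcript length. In vehicle samples the means were 0.441 ± 0.349 TPM (SD, n = 10) for CYP4F3, 0.228 ± 0.146 for CYP4F12, 0.203 ± 0.074 for CYP4F8, 0.117 ± 0.133 for CYP4F2 and 0.021 ± 0.024 for CYP4F11. Neighbours in this order had overlapping ranges. In nutlin samples CYP4F2 was at 171 ± 12.1 TPM and CYP4F3 at 149 ± 5.49. Their ranges overlapped, while the ratio of CYP4F2 to CYP4F3 was above 1 in 10 of 10 samples (1.02 to 1.22). That order depends on which transcripts are counted. With transcripts of the type protein_coding only, CYP4F3 was at 81.2 TPM and CYP4F2 at 44.7. CYP4F12 followed at 6.50 ± 0.961 TPM, below CYP4F3 by 23.4 ± 3.07-fold (SD, n = 10). CYP4F8 at 0.446 ± 0.183 and CYP4F11 at 0.151 ± 0.075 overlapped.

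The transcripts that held the counts were unequal in kind. In CYP4F2 the leading transcript of nutlin samples was CYP4F2-203, typed as retained intron, with 66.8% ± 2.67 (SD, n = 10) of the counts of the gene. It lacks the exon of 199 bases that holds the start codon of the canonical transcript, CYP4F2-202, and keeps an intron of 92 bases. CYP4F2-202 had 15.1% ± 2.30 of the counts. The order did not change as a share of TPM, with 46.7% for CYP4F2-203 and 9.84% for CYP4F2-202, but the short transcripts CYP4F2-207 (19.6%) and CYP4F2-206 (13.8%) came between them. No vehicle sample had a count on CYP4F2-203 or CYP4F2-202.

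In CYP4F3 the canonical transcript CYP4F3-201, which carries the downstream exon shown above, had 59.8% ± 2.74 of the counts in nutlin samples. CYP4F3-206 and CYP4F3-203, both with the upstream exon, had 17.5% ± 2.50 and 9.99% ± 2.33. As a share of TPM the leading transcript was another, CYP4F3-208 of the type nonsense-mediated decay with 36.3%, a short model of 561 bases, and CYP4F3-201 fell to 28.9%. CYP4F3-207, with 6.33% ± 1.07 of the counts, keeps an intron of 91 bases that corresponds in place to that of CYP4F2-203, between exons of 54 and 128 bases.

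**Figure D2:**
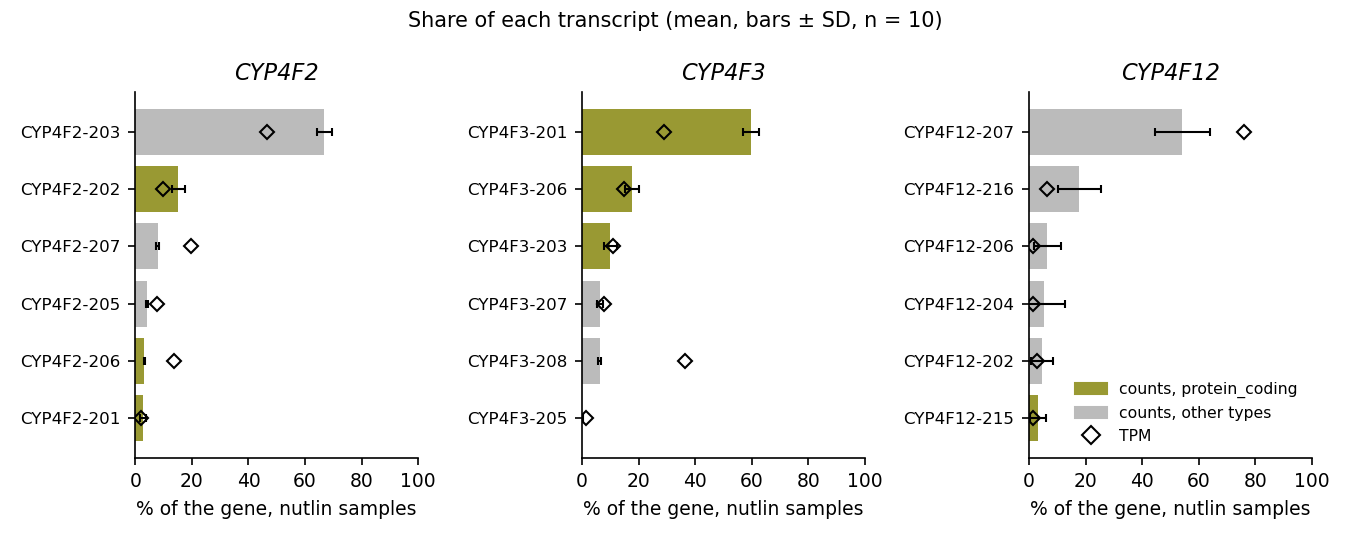
Share of the gene held by each of the 6 most counted transcripts of CYP4F2, CYP4F3 and CYP4F12 (horizontal axis, percent) in nutlin samples. Bars are mean shares of counts ± SD (n = 10), coloured for transcripts typed protein_coding and grey for other types, and diamonds are mean shares of TPM. CYP4F2-203 and CYP4F12-207, both grey, lead their genes by counts.

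The 2 genes differed in the alternative exons. In CYP4F2, transcripts with the upstream exon made up 96.4% ± 1.32 (SD, n = 10) of the TPM of transcripts with either exon, with a range of 94.1% to 98.1%. In CYP4F3 they made up 53.5% ± 2.78, with a range of 50.3% to 58.3%. Every nutlin sample was thus higher for CYP4F2 than for CYP4F3. By counts the share of the upstream exon was 96.7% in CYP4F2 and 36.2% ± 2.77 in CYP4F3, so that for CYP4F3 the more frequent exon depends on the unit. The transcripts that carry the exons also differ in length and at their ends, and no value rests on reads of the exons themselves. In vehicle samples CYP4F3 had 97.2% ± 5.80 of such counts on the downstream exon, from a median of 5.23 counts on CYP4F3-201. Among vehicle samples 3 had any count for CYP4F2 with either exon.

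CYP4F12 counts were mostly on transcripts that are not typed as coding. CYP4F12-207, a retained intron transcript of 686 bases at the 5′ end, had 54.2% ± 9.75 of the counts in nutlin samples and 76.0% of TPM, and CYP4F12-216, also a retained intron, had 17.8% ± 7.58 of the counts. The canonical CYP4F12-215 had 3.13% ± 2.81. Over protein_coding transcripts only, CYP4F12 was at 0.264 TPM. CYP4F8 was counted almost entirely on CYP4F8-209, a retained intron transcript of 2 exons at the 3′ end, with 100.0% of the counts in vehicle samples and 93.3% ± 5.01 in nutlin samples, and no protein_coding transcript of CYP4F8 gave TPM. The canonical coding transcript CYP4F8-210 was quantified with a length of 1889 bases, against 2908 in the annotation used here. Of the 31-base words of CYP4F8-209, 11.3% occur in other genes. Whether this shifted counts to CYP4F8-209 was not tested. CYP4F11 counts lay on protein_coding transcripts, led by CYP4F11-202 with 69.8% ± 40.1, on a median of 6.05 counts per sample.

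The 250 bases before the start of the canonical transcripts are shown for the 3 genes whose groups were apart, since they moved together and are alike in sequence. They are written 5′ to 3′ on the strand of the gene, with CCAAT, or its reverse complement ATTGG, in capitals.
CYP4F2, chr19:15898075-15898324, minus strand: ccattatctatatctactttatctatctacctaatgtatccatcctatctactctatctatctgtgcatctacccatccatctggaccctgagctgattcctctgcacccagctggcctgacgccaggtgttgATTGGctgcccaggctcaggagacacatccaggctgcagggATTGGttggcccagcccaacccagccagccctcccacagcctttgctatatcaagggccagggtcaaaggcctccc
CYP4F3, chr19:15640647-15640896, plus strand: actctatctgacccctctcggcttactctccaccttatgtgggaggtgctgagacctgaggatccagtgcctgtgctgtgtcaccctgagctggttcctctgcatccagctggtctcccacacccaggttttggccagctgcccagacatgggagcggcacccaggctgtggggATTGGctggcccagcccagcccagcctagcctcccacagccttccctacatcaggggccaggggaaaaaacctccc
CYP4F12, chr19:15672837-15673086, plus strand: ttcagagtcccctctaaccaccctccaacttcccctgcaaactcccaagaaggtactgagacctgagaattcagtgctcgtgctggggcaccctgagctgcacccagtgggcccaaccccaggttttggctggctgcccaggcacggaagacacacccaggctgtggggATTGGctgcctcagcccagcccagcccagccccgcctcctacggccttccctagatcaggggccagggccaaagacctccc

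With 50 bases after the start included, the promoters of CYP4F3 and CYP4F12 were identical at 235 aligned bases, CYP4F2 and CYP4F3 at 217 and CYP4F2 and CYP4F12 at 216. CYP4F8 was nearly as like CYP4F3, with 208 bases. CYP4F11 shared 144 to 158 bases with the other members and CYP4F22 144 to 165. The CCAAT letters, on either strand, began 76 bases before the start in both CYP4F2 and CYP4F3 and 81 bases before it in CYP4F12. CYP4F8 had 3 copies, the nearest 57 bases before the start, CYP4F11 had 1 at 47 bases, and CYP4F22 had none. Of 35116 RefSeq promoters of GRCh38 with the same window, 34.6% held CCAAT on either strand. The match is a description and says nothing of a factor bound there.

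The genes with the pattern most like that of a member over the 20 samples were found by the root mean square difference (RMS) of log2(CPM + 0.5), relative to vehicle, among genes of at least 1 CPM. CYP4F2 and CYP4F3 were nearest to each other, with an RMS of 0.28. The measure spans both groups and so follows the size of the nutlin change, by which the family was chosen. CYP4F2 and CYP4F3 also share sequence, so that their nearness is a description only. GDF15, a secreted factor of the TGF-beta superfamily, came next for both (0.77 from CYP4F2 and 0.71 from CYP4F3), with 0.467 ± 0.340 CPM (SD, n = 10) in vehicle and 189 ± 23.1 in nutlin samples. INPP5D, an inositol phosphatase, followed (0.92 and 0.82), with 0.368 ± 0.191 and 145 ± 8.00 CPM. For CYP4F12 the nearest were the lncRNA FAM87A (0.18), CYRIA (0.18) and S100A11 (0.20), a calcium-binding protein. The added 0.5 CPM is above every vehicle value of CYP4F2 and CYP4F12 (highest 0.254 and 0.351). Their change is therefore smaller in this measure than as LFC, and genes of smaller LFC can come out as like. FAM87A was near CYP4F12 in level, at 0.040 ± 0.063 CPM in vehicle and 3.81 ± 0.706 in nutlin samples. CYRIA (69.7 ± 4.33 and 573 ± 30.6 CPM) and S100A11 (14.7 ± 2.22 and 112 ± 6.36 CPM) were at higher levels. The LFC was 6.39 for FAM87A, 3.04 for CYRIA and 2.92 for S100A11, against 4.93 for CYP4F12.

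Genes other than the members were tested by edgeR's quasi-likelihood test with Benjamini-Hochberg adjustment over all 36016 genes, and a gene with an adjusted p below 5% is said to be higher or lower in nutlin samples. By this call 27.9% of all genes were higher and 21.4% lower, and the median LFC of all genes was 0.22.

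Between the outer members the annotation holds 24 further genes, among them CYP4F pseudogenes, olfactory receptor genes and lncRNAs, of which 22 had a matched transcript. Of the 9 with a count in each condition, 4 were higher in nutlin samples, 0 were lower and 5 did not pass the test, and their median LFC was 0.90. Of the 5 that did not pass, LFC ranged from -1.02 for LINC01764 to 0.90 for ENSG00000288618, on 34 counts per condition or fewer. ENSG00000279717, a gene model that the annotation marks for experimental confirmation, lies upstream of CYP4F2 on the opposite strand. It was at 0.132, 0.264 and 0.518 CPM in the lowest, median and highest vehicle sample and at 1.23, 2.67 and 4.24 in nutlin samples. Its groups did not overlap (LFC 3.28 ± 0.27 (SE), adjusted p = 1.7e-13). It shared no 31-base word with the members. The other 3 were of low counts and are named after their values were seen. ENSG00000267218, a processed pseudogene between CYP4F2 and ENSG00000279717, had 3 counts in vehicle and 205 in nutlin samples (ratio 76.1, exact 95% interval 25.7 to 372). Ratios here are corrected for total counts without TMM. The lncRNA UCA1, known from bladder cancer, had 19 and 135 counts (LFC 2.70 ± 0.44 (SE), adjusted p = 3.6e-07), with overlapping groups. RPL23AP2 had 3 and 16 counts (ratio 5.94, exact 95% interval 1.70 to 31.8).

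A further 10 of the 22 genes had counts in nutlin samples only, against 10.7% of all 57536 genes, and 0 had counts in vehicle samples only. In the flanks described below it was 7 of 51 matched genes, and among CYP4F pseudogenes elsewhere in the genome 5 of 14. Those inside the span included the pseudogenes CYP4F10P, CYP4F23P, CYP4F24P and CYP4F36P and the olfactory receptor genes OR10H1, OR10H2 and OR10H5. Totals over the 10 nutlin samples were low. CLEC4OP was the highest with 45 counts, OR10H2 had 39 and CYP4F24P 37, each spread over 9 or 10 nutlin samples. They differed in the sequence shared with the members. Of the 31-base words of CYP4F24P, 21.0% occur in transcripts of the members, of CYP4F10P 6.51% and of CYP4F23P 5.75%, while CLEC4OP, CYP4F36P, OR10H1, OR10H2 and OR10H5 share none.

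**Figure D3:**
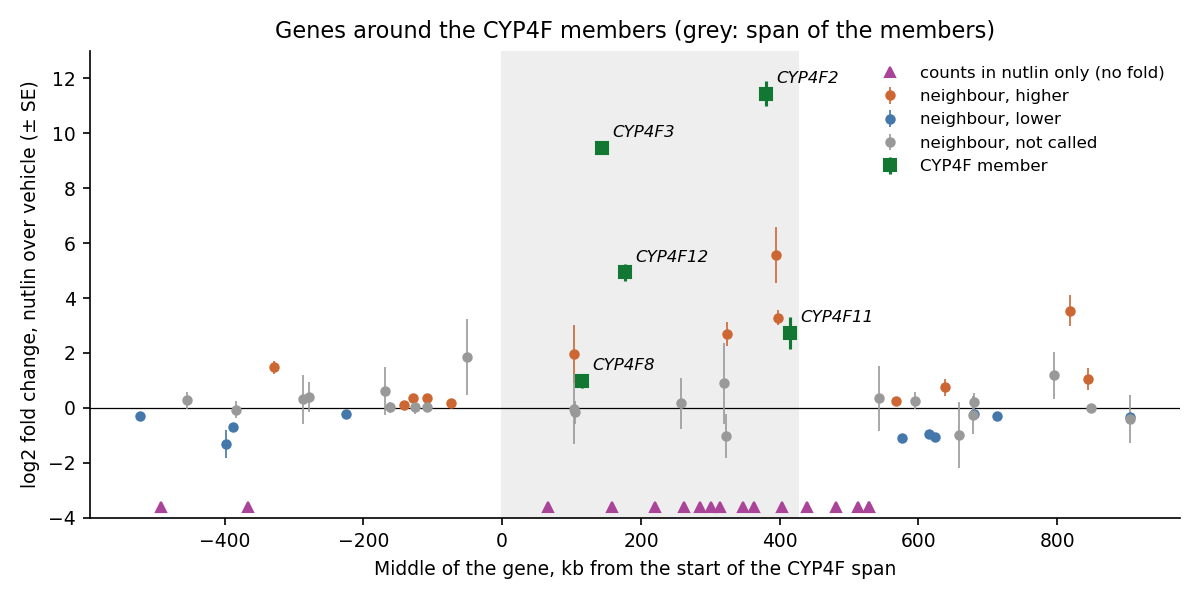
LFC ± SE of genes around the members (vertical axis) against the distance of the middle of each gene from the start of the span of the members (horizontal axis, kb). Green squares are members, circles are other genes (orange higher, blue lower, grey not called), triangles mark genes with counts in nutlin samples only, and grey shading marks the 426 kb between the outer members. Orange circles and triangles are frequent in the shading, while both colours occur outside it.

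In the 500 kb on either side, 36 genes were tested, of which 9 were higher, 10 lower and 17 did not pass, with a median LFC of 0.07. Of those with a mean of at least 1 CPM, 9 were lower and 5 higher. TPM4, a tropomyosin of the actin cytoskeleton, fell from 555 to 258 CPM (LFC -1.11 ± 0.03 (SE), adjusted p = 6.6e-24). The lncRNA ENSG00000269243 (LFC -1.07), the vesicle traffic GTPase RAB8A (LFC -0.93) and ILVBL (LFC -0.70) also fell. SLC1A6, FAM32A, AP1M1 and EPS15L1 fell by 0.22 to 0.33 on the log2 scale, and AKAP8, AKAP8L, WIZ, ENSG00000268189 and ENSG00000279198 rose by 0.10 to 0.36. The other 4 genes that were higher had lower counts and are named after their values were seen. KLF2 had 8 counts in vehicle and 110 in nutlin samples (LFC 3.54 ± 0.56 (SE), adjusted p = 9.2e-09), and the LFC was 1.48 for NOTCH3, 1.06 for ENSG00000277825 and 0.75 for HSH2D. SYDE1, also of low counts, was lower (LFC -1.31). Both directions thus occurred in the flanks. Of 14 CYP4F pseudogenes matched elsewhere in the genome, 5 had no count in any sample, 5 had counts in nutlin samples only, 4 were tested and 3 were higher, of which CYP4F26P on chromosome 9 reached the level named here, with an increase from 0.633 ± 0.237 CPM (SD, n = 10) to 3.47 ± 0.427 (LFC 2.42 ± 0.17 (SE), adjusted p = 3.6e-14). It shared no 31-base word with the members.

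Genes of the pathways around CYP4F enzymes were taken in 9 lists with 72 genes. The lists were chosen with earlier results of these data known. Their counts of called genes and adjusted p-values are thus not independent of that choice and are given as a description. Of 68 tested, 22 were higher, 21 lower and 25 did not pass, with a median LFC of 0.13 beside 0.22 over all genes. The backgrounds were 27.9% and 21.4% of all genes.

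Of 5 enzymes that supply P450s with electrons 3 were lower and 0 higher. The reductase POR was at 47.8 ± 2.79 CPM (SD, n = 10) in vehicle and 45.7 ± 2.03 in nutlin samples (LFC -0.06 ± 0.04 (SE), adjusted p = 0.18). CYB5B, the mitochondrial cytochrome b5, fell from a mean of 93.2 to 51.0 CPM (LFC -0.87 ± 0.05 (SE), adjusted p = 1.1e-15), and CYB5R3, a cytochrome b5 reductase, from 133 ± 9.05 to 90.4 ± 4.08. Of 5 other CYP4 genes tested 2 were higher, among them CYP4V2, a fatty acid hydroxylase of the retina, with 0.754 ± 0.242 and 1.32 ± 0.329 CPM. Of 7 CYP2 oxygenases and epoxide hydrolases 2 were higher, both under 1 CPM, and 3 lower. The lower genes included EPHX1 (LFC -0.41) and, close to the 5% limit, CYP2U1 (LFC -0.14, adjusted p = 0.0495).

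Upstream of the substrates, 6 of 11 genes of arachidonate release and lipoxygenases were higher, 1 was lower and 4 did not pass. ALOX5, which starts leukotriene synthesis, was at 0, 0.073 and 0.198 CPM in the lowest, median and highest vehicle sample and at 1.65, 2.89 and 4.27 in nutlin samples. The groups did not overlap (LFC 5.10 ± 0.49 (SE), adjusted p = 4.5e-15). PLA2G6, a phospholipase that frees fatty acids, rose from 18.9 ± 1.73 to 36.6 ± 1.80 CPM. ALOX5AP, the partner of ALOX5, had 1 count over all vehicle samples and 0 over all nutlin samples, and was not tested. LTA4H, which makes leukotriene B4, fell from 78.7 ± 6.67 to 64.7 ± 5.05 CPM. The other 4 that were higher, PLA2G4A, ALOX12B, ALOX15 and ALOX15B, are named after their values were seen and had means of at most 0.219 CPM in nutlin samples. Of 6 receptors for leukotrienes and 20-HETE 4 were higher and 0 lower, by small amounts. CYSLTR1 rose from 3.50 ± 0.740 to 5.32 ± 1.02 CPM and GPR75 from 4.15 ± 0.485 to 5.14 ± 0.536.

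Downstream, of 9 genes that oxidise omega-hydroxy fatty acids 4 were lower, 1 higher and 4 did not pass. ALDH3A2, the fatty aldehyde dehydrogenase, fell from 52.7 ± 2.03 to 25.1 ± 0.901 CPM with no overlap of the groups (LFC -1.07 ± 0.03 (SE), adjusted p = 3.9e-22). ADH5, an alcohol dehydrogenase, fell from 150.1 ± 11.8 to 76.2 ± 3.88 CPM. Of 6 genes that handle vitamins K and E 4 were lower and 0 higher, among them the vitamin K epoxide reductases VKORC1L1 (65.8 ± 4.39 to 34.2 ± 1.62 CPM) and VKORC1 (82.7 ± 9.18 to 44.9 ± 5.21 CPM). Of 10 genes of acylceramide synthesis, the pathway of the undetected CYP4F22, 3 were higher and 3 lower. ABCA12, a lipid transporter, rose from 12.2 ± 1.85 to 28.0 ± 3.25 CPM, while SLC27A4 (LFC -0.28) and UGCG (LFC -0.20) fell. Of 9 transcription factors that have been linked to CYP4F genes 4 were higher and 3 lower. The sterol regulator SREBF2 rose (LFC 0.64) and SREBF1 fell (LFC -0.86), and the retinoid receptor RARA rose (LFC 0.52) and RXRA fell (LFC -0.87).

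**Figure D4:**
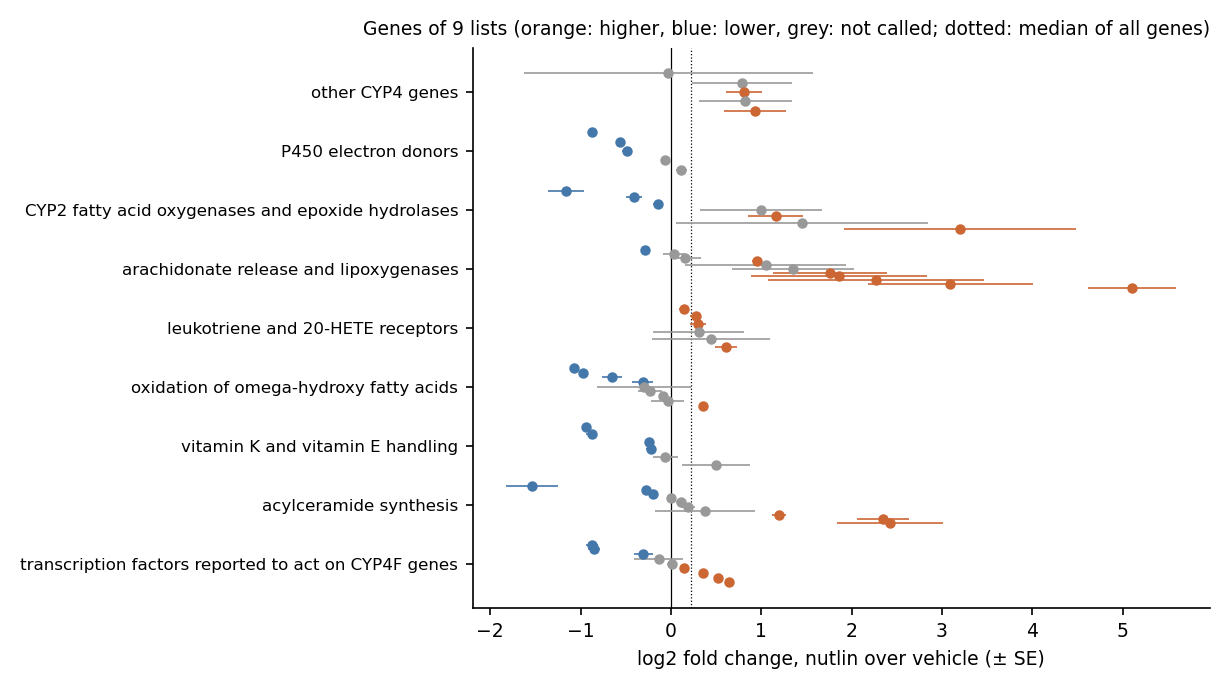
LFC ± SE (horizontal axis) of the 68 tested genes of 9 lists (rows), in orange where higher, in blue where lower and in grey where not called, with the median of all genes as a dotted line. The electron donors and the vitamin K and E genes have no orange point, and ALOX5 is the point farthest to the right.

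The labels and the cell type were checked on other genes. MDM2 rose from 235 ± 32.8 to 5292 ± 376 CPM (SD, n = 10) and CDKN1A, a cell cycle inhibitor, from 31.5 ± 10.8 to 1597 ± 156, with no overlap of the groups. All 8 adrenergic neuroblastoma markers were at 83.8 CPM or more in every sample. Tissues in which CYP4F genes are known were checked by their markers. The 6 hepatocyte markers summed to between 0 and 1.22 CPM in vehicle and between 0.188 and 1.19 in nutlin samples, where ALB was at 0 in every vehicle sample and at 0.542 CPM on average in nutlin samples. The 6 leukocyte markers summed to 2.25 to 4.28 CPM and 3.88 to 7.23, with CD3E at 0 in all samples, CSF3R at 2.35 and 2.62 and the myeloid integrin ITGAM at 0.013 and 2.67 on average. The keratinocyte list summed to 23.8 to 32.1 and 20.2 to 27.5 CPM, nearly all of it KRT10, and KRT1 was at 0. The fibroblast list summed to 27.5 to 35.0 and 41.2 to 51.9 CPM, with COL1A1 at 8.55 and 33.4 on average and PDGFRB at 16.9 and 8.67. The part of other cell types in the CYP4F values was not tested, and in such bulk samples more cells of a type and more RNA per cell cannot be told apart.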

How the data were processed

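The RNA-seq libraries of 20 NGP samples were grouped by label into 10 vehicle and 10 nutlin samples, which the study describes as biological replicates. The CYP4F genes and all gene lists were chosen with earlier results of these data known. The authors quantified reads with kallisto 0.42.4 on GRCh38 transcripts. The estimated counts deposited by the authors are read pairs per transcript with no normalization, and the TPM values deposited by the authors are those counts scaled by effective length and library size. Whether the strand was used in quantification is not given in the sources used here, so antisense genes are uncertain.

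Transcripts were matched by identifier to GENCODE release 44 (191106 of 198968, with 95.7% to 96.8% of a sample's counts). Counts were summed per gene and rounded, and the 36016 genes counted at least once in both conditions were fitted with edgeR 4.0.16 (R 4.3.3) by the quasi-likelihood test, with TMM normalization, the treatment as covariate and a 5% FDR after Benjamini-Hochberg adjustment. SEs are Wald SEs of that fit. Depth ranged from 14455477 to 19532971 read pairs and intervals and floors cover counting error only. Sequences were read from GRCh38, and RefSeq promoters of GRCh38.p14 served as background. Words of 31 bases were those of GENCODE transcripts present in the files.

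The genes named by rule were the members, neighbours within 500 kb or CYP4F pseudogenes anywhere that were called at a mean of at least 1 CPM, up to 2 called genes per list and direction with the largest LFC at that level, and the 3 genes most like each member at that level, with MDM2 and CDKN1A as checks. A few genes that this rule or the lists hold are counted but not reported by name here. Alternatives were DESeq2 size factors, DESeq2 1.42.0, limma 3.58.1 voom, the filterByExpr filter, an offset for effective length, protein_coding transcripts only, unmatched transcripts in the library size, the replicate number as a block, 1% FDR, and shares of TPM in place of counts. Those added after the data were seen were a fit of protein_coding and lncRNA genes only and the 16 samples of shared numbers without the block. Count ratios were corrected for total counts without TMM, and their exact intervals (binomial) were made with scipy 1.17.1. Python 3.11.15, pandas 2.3.3, numpy 2.4.6, biopython 1.88 and matplotlib 3.10.9 were used for the tables and plots.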

Additional observations from a re-analysis of the deposited data

How the results depend on the processing

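Of 113 values under alternatives, 99 stayed within the spread between samples (for counts of genes, within 1.5 times), 14 moved and 0 reversed. For LFC this spread is the larger SD of the 2 groups on the log2 scale, which is wide where vehicle counts are near 0. It was 2.06 for CYP4F2, 1.97 for CYP4F11 and 1.93 for CYP4F12. Staying within it therefore says little on how stable the LFC of these genes is. With protein_coding transcripts only, the LFC of the summed members was 9.60, neighbours (within 500 kb, with CYP4F pseudogenes anywhere) called higher were 7 and lower 4, in place of 16 and 10, and TPM in nutlin samples was 44.7 for CYP4F2, 81.2 for CYP4F3, 0 for CYP4F8 and 0.264 for CYP4F12. In CYP4F2, CYP4F8 and CYP4F12 this leaves out the leading transcript. The LFC of CYP4F2 was then 9.74, and it ranged from 9.74 to 12.04 over all alternatives. As shares of TPM the leading transcripts held 46.7% in CYP4F2, 28.9% in CYP4F3, 85.9% in CYP4F8 and 76.0% in CYP4F12. Neighbours called higher were 8 with filterByExpr, which tests fewer genes, 9 at 1% FDR and 10 with the replicate block, which uses 16 samples.

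Vehicle and nutlin samples share 8 numbers. The deviations of same-numbered samples correlated between -0.07 and 0.07, and 1 of 8 correlated best with its own number, so that the numbers were not taken as pairs. With the replicate block the LFC was 12.04 for CYP4F2, 9.61 for CYP4F3, 4.71 for CYP4F12, 3.17 for CYP4F11 and 0.88 for CYP4F8, against 12.04, 9.61, 4.71, 3.12 and 0.89 in the same 16 samples unpaired, and pathway genes called were 18 higher and 20 lower, against 20 and 19 unpaired. Neighbours called higher were 12 unpaired. CYP4F11 gave no value with filterByExpr, CYP4F8 none with protein_coding transcripts only and CYP4F22 none in any fit. In vehicle samples depth limits the members to between 0 and 15 counts, so that folds of CYP4F2, CYP4F11 and CYP4F12 are imprecise in size.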
